A study of Mus musculus with 2 samples.

Results

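The 10 genes described here encode enzymes and helpers that modify, fold, trim and crosslink collagen. They are P4ha1, P4ha2, Plod1, Plod2, Plod3, Serpinh1, Bmp1, Pcolce, Lox and Loxl2, chosen by name, and all 10 were among the 12707 protein-coding genes of the deposited table. RNA-seq was done on 2 libraries of CD45-negative live cells sorted from Py8119 tumours. The first library came from tumours in hosts labelled Mtdh knock out (KO) and the second from tumours in hosts labelled Mtdh wild type (WT). Py8119 is a mouse mammary tumour line of mesenchymal character, and its cells carried wild-type Mtdh in both libraries, so the hosts alone differ by label. The sources used here give no age, strain or number of pooled tumours. Sorted cells can hold tumour cells together with whatever stromal cells the host supplied. With 1 library per host genotype there is no replicate check: each value describes these libraries, no p-value was computed, and intervals cover counting error only.

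Collagen chains are hydroxylated in the endoplasmic reticulum before they fold into a triple helix. Prolyl 4-hydroxylation stabilises the helix, lysyl hydroxylation prepares the crosslinking sites, and the chaperone HSP47 binds the folded helix on its way out of the cell. Outside the cell, proteinases cut off the propeptides, fibrils form, and lysyl oxidases oxidise lysines so that neighbouring molecules become covalently bound. In mammary tumours, crosslinked collagen is known for stiffening the matrix around the tumour cells.

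The libraries held 23381823 recovered reads for the KO host and 26069350 for the WT host. Reads were recovered from the deposited log2(FPKM + 1) values, where FPKM is fragments per kilobase of genomic span per 1000000 fragments. Ratios are given on reads per 1000000 recovered reads (RPM), because the added 1 and the use of the genomic span, introns included, shrink the deposited differences of long and low genes. Spread between the libraries grew steeply as reads fell: among genes with 3000 or more reads over both libraries 1.16% were 2-fold lower and 1.85% 2-fold higher in the KO host, while among genes with 100 to under 300 reads 32.5% were 2-fold lower and 27.5% 2-fold higher. Between these, the shares were 20.1% lower and 12.9% higher at 300 to under 1000 reads, and 7.26% lower and 4.05% higher at 1000 to under 3000 reads. Each of the 10 genes is therefore also set against all genes in its own range of reads, as are some of the other genes named. Mtdh itself had 23130 reads in the KO host and 28376 in the WT host, a log2 read ratio of -0.14, and the wild-type tumour cells in each library limit what this says of the hosts.

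Among the 10 genes, Serpinh1, Lox and Pcolce were lower in the KO host, and P4ha1, P4ha2, Bmp1 and Loxl2 were higher. Plod1 was 1.25-fold lower and Plod2 1.18-fold lower, and Plod3 did not differ beyond counting error. Serpinh1 was 4.64-fold lower in reads. On few reads, Lox was 12.98-fold lower and P4ha2 was 3.0-fold higher. The counting interval of the read ratio lay below 1 for 5 genes, above 1 for 4 and included 1 for Plod3. By size, 2 of the 10 genes were 2-fold or more lower, where 12.0% of the 10813 genes with 100 or more reads were, and 1 was 2-fold or more higher, where 8.90% were. These shares are near those of all genes, so the count of moved genes is not particular to the group. The median log2 read ratio of the 10 genes was -0.15, against -0.06 over all genes with 100 or more reads.

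**Figure D1:**
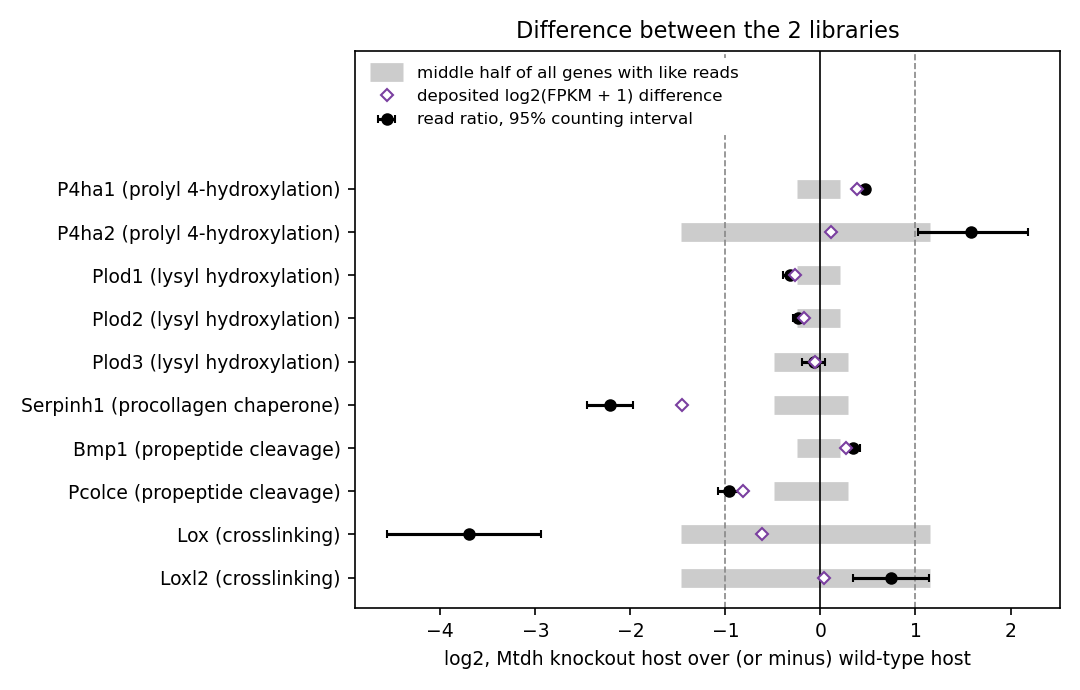
Read ratio of each gene (black points, log2, KO host over WT host, with the 95% counting interval), the difference of the deposited log2(FPKM + 1) values (open diamonds), and the interquartile range of all genes in the same range of reads (grey bars); dashed lines mark a 2-fold change. Serpinh1, at -2.21, lies far outside its grey bar, while the bars of P4ha2, Lox and Loxl2 reach from -1.46 to 1.15.

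On the deposited scale each gene had the same direction with a smaller difference. A mean log2(FPKM + 1) of 1 or more was reached by 7 of the 10 genes, and P4ha2, Lox and Loxl2 fell short of it. Of these 7, Serpinh1 was lower by 1 or more, where 2.64% of 6057 genes were, and 0 were higher by 1 or more, where 2.31% were. The median difference of the 7 genes was -0.18, against -0.03 over the 6057 genes.

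Prolyl 4-hydroxylase is a tetramer of alpha subunits, which hold the active site, and beta subunits, which are the protein disulphide isomerase encoded by P4hb. P4ha1 (ENSMUSG00000019916, chromosome 10, 59159118 to 59209127, plus strand in the deposited table, with mm39 the build named in the submitters' processing notes) encodes the main alpha subunit of most cells. It had 7047 reads in the KO host and 5692 reads in the WT host, or FPKM 6.03 in the KO host and 4.37 in the WT host. That is a 1.38-fold higher RPM in the KO host (95% counting interval 1.33 to 1.43). Of the genes with 3000 or more reads, 10.3% were as high or higher. P4ha2 (ENSMUSG00000018906, chromosome 11, 53990921 to 54022492, plus strand) encodes a second alpha subunit and had 97 reads in the KO host and 36 in the WT host. Its RPM was 3.0-fold higher in the KO host (2.03 to 4.54), but 19.3% of genes with 100 to under 300 reads were as high or higher. On the deposited scale the same gene differed by 0.12, since its FPKM of 0.131 in the KO host and 0.0437 in the WT host are small beside the added 1.

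P4ha1 supplied nearly all alpha subunit RNA in each library, with 98.4% of P4ha1, P4ha2 and P4ha3 reads in the KO host (exact 95% interval 98.1 to 98.7) and 98.2% in the WT host (97.8 to 98.5). The order of the minor alpha subunits differed, but at low depth. P4ha2 took 1.35% of these reads in the KO host (97 reads) and 0.621% in the WT host (36 reads). P4ha3, the remaining alpha subunit gene, took 0.251% in the KO host (18 reads) and 1.16% in the WT host (67 reads). It was chosen for its family rather than by the naming rule, and lay below the limit of 100 reads over both libraries. Among genes with 100 to under 300 reads, the range of P4ha2, 32.5% were 2-fold lower and 27.5% 2-fold higher. A changed order on so few reads is therefore not set apart from the spread at low depth. P4hb, shared by all the alpha subunits, had 21116 reads in the KO host and 29152 in the WT host and was 1.24-fold lower.

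The promoters of both prolyl hydroxylase genes are shown because the 2 genes were higher together and alpha subunit genes are known hypoxia-inducible targets. They are RefSeq windows from 250 bases before to 50 bases after the annotated start on GRCm38.p6, a build other than that of the deposited coordinates. Capitals mark each match on either strand to the hypoxia response core, searched as ACGTG and GCGTG. No matches overlapped in the windows printed.
P4ha1, chr10:59323046-59323345, plus strand: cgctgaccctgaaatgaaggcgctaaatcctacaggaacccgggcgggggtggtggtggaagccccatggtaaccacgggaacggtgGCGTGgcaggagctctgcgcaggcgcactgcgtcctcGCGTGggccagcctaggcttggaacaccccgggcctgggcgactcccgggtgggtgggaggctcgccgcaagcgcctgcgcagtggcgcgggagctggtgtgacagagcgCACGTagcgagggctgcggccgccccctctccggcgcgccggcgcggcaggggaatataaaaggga
P4ha2, chr11:54100674-54100973, plus strand: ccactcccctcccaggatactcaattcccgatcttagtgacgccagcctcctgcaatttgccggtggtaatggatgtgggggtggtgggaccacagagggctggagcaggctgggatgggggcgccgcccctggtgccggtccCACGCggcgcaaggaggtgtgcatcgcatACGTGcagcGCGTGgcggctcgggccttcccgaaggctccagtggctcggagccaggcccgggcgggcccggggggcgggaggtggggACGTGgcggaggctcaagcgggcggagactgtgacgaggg
P4ha1 had 3 matches and P4ha2 had 4. Either core was also present in 43.8% of all 32851 promoter windows, and in all 6 windows found for the 10 genes, including those of genes that were lower, so these letters do not set the higher genes apart.

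Genes of the hypoxia response, a list of 17, leaned higher but lay on both sides of level: of the 16 with 100 or more reads, 10 were above it and 6 below. The list summed to 5420 RPM in the KO host and 3816 RPM in the WT host, a ratio of 1.42. In the KO host 4 were 2-fold or more higher, where 8.90% of all genes with 100 or more reads were, 1 was 2-fold lower and 11 lay between, with a median log2 read ratio of 0.42. Vegfa, the vascular growth factor, had 32582 reads in the KO host and 15765 in the WT host (2.30-fold higher), and 1.16% of genes in its range were as high or higher. Slc2a1, the glucose transporter GLUT1, had 37012 reads in the KO host and 25115 in the WT host (1.64-fold higher). Ndrg1, outside the naming rule and chosen after its values were seen, had 9274 reads in the KO host and 5492 in the WT host. It was 1.88-fold higher, with 2.01% of genes in its range as high or higher. On the other side was Egln3, an oxygen-sensing hydroxylase, with 235 reads in the KO host and 1064 in the WT host (4.06-fold lower, with 0.669% of genes in its range as low or lower). Car9, a carbonic anhydrase chosen after its values were seen, had 1015 reads in the KO host and 2099 in the WT host (1.85-fold lower), and 1.63% of genes in its range were as low or lower. The other 3 past 2-fold had 100 to under 300 reads, where 27.5% of all genes were 2-fold higher. They were Ankrd37 (105 reads in the KO host and 17 in the WT host), Pfkfb4 (103 reads in the KO host and 38 in the WT host) and Hilpda (187 reads in the KO host and 70 in the WT host), the last chosen after its values were seen. Plod2 and Lox are known hypoxia targets as well. Plod2 was 1.18-fold lower, and Lox was lower on few reads, with 15 in the KO host and 217 in the WT host. The part of hypoxia in the values of the 10 genes was not tested.

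The lysyl hydroxylases were level or slightly lower. Plod1 (ENSMUSG00000019055, chromosome 4, 147994210 to 148021225, minus strand) encodes LH1, which acts mainly on lysines of the helix. It had 2554 reads in the KO host and 3563 in the WT host and was 1.25-fold lower (95% counting interval 1.19 to 1.32). Plod2 (ENSMUSG00000032374, chromosome 9, 92424276 to 92490482, plus strand) encodes LH2, which acts on the telopeptides and is known for the stable crosslinks of fibrotic tissue. It had 4517 reads in the KO host and 5921 in the WT host and was 1.18-fold lower (1.13 to 1.22). Plod3 (ENSMUSG00000004846, chromosome 5, 137015873 to 137025503, plus strand) encodes LH3, which also adds sugars to hydroxylysine. It had 1086 reads in the KO host and 1273 in the WT host, a ratio of 0.951 whose interval of 0.876 to 1.03 includes 1. The shares of genes in their range of reads that were as low or lower were 19.3% for Plod1, 26.9% for Plod2 and 51.0% for Plod3, so none stood far from the bulk of genes.

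The balance within the family was nearly the same in the libraries. Plod2 took 55.4% of lysyl hydroxylase reads in the KO host (exact 95% interval 54.3 to 56.5) and 55.0% in the WT host (54.1 to 56.0). Plod1 took 31.3% in the KO host and 33.1% in the WT host, and Plod3 took 13.3% in the KO host and 11.8% in the WT host. Plod3 lies opposite Znhit1, which had 111 reads in the KO host and 30.4 in the WT host. The sources used here do not state strand handling, so reads in the overlap cannot be assigned with certainty.

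Partners of these hydroxylases included several genes with larger differences. P3h3, which forms a complex with LH1 and P3h4 in mouse skin, had 100 reads in the KO host and 474 in the WT host and was 4.25-fold lower (3.42 to 5.33), where 5.30% of genes in its range were as low or lower. P3h4, outside the naming rule and chosen after its values were seen, had 14 reads in the KO host and 82 in the WT host, below the limit of 100. Fkbp14, a prolyl isomerase of the endoplasmic reticulum, had 497 reads in the KO host and 1222 in the WT host (2.21-fold lower). Crtap, from the complex that 3-hydroxylates proline, was 1.17-fold lower with 3399 reads in the KO host and 4416 in the WT host, and Colgalt1, a collagen galactosyltransferase, was 1.26-fold lower with 1821 reads in the KO host and 2550 in the WT host. Of the 8 listed prolyl hydroxylase genes and partners, 6 had 100 or more reads, and 1 of these was 2-fold lower and 0 were 2-fold higher, with a median log2 read ratio of -0.26. Of the 4 partners of lysyl hydroxylation in the table, 3 had 100 or more reads, and 1 of these was 2-fold lower, with a median of -0.35.

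**Figure D2:**
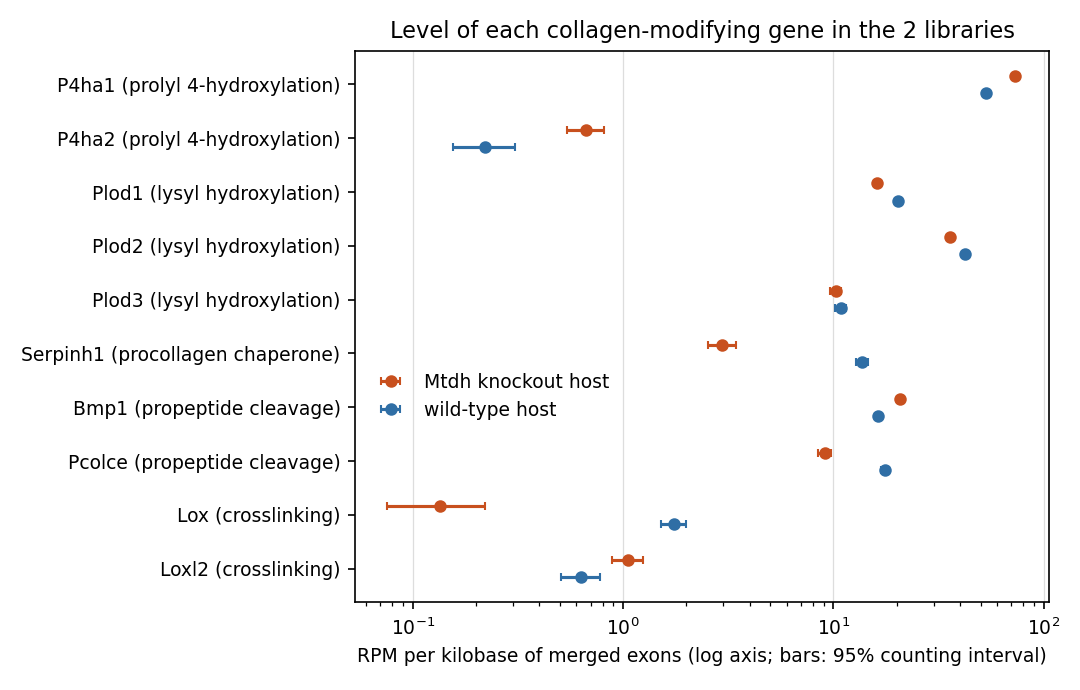
Level of each gene in RPM per kilobase of merged exons (log axis), with the KO host above the WT host and bars for the 95% counting interval of the reads. P4ha1 is highest in each library, at 73.3 in the KO host and 53.1 in the WT host, and the largest gaps between the points are those of Lox, Serpinh1 and P4ha2.

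Levels of different genes were compared per kilobase of merged exons, with exon lengths from GENCODE M21 matched on gene ID. This assumes that reads were counted over exons, which the sources used here do not state, and the order of genes rests on it. If so, FPKM over the genomic span would rank short-span genes too high. The span was 2.13 times the exon length for Plod3 and 16.1 times for Loxl2. P4ha1 came first in each library and Plod2 second, at 35.8 RPM per exonic kilobase in the KO host and 42.1 in the WT host. Below them the order in the KO host was Bmp1, Plod1, Plod3, Pcolce, Serpinh1, Loxl2, P4ha2 and Lox, and in the WT host Plod1, Pcolce, Bmp1, Serpinh1, Plod3, Lox, Loxl2 and P4ha2. Neighbours in these orders had counting intervals that did not overlap in the WT host, and in the KO host only those of Plod3 (10.3, interval 9.68 to 10.9) and Pcolce (9.07, interval 8.46 to 9.72) overlapped. Serpinh1 was at 2.96 in the KO host and 13.7 in the WT host, and Lox at 0.134 in the KO host and 1.74 in the WT host, so Lox was last in the KO host and ahead of Loxl2 and P4ha2 in the WT host.

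Serpinh1 (ENSMUSG00000070436, chromosome 7, 98994583 to 99002447, minus strand) encodes HSP47, a serpin without protease inhibitor activity that chaperones procollagen. It had 169 reads in the KO host and 874 in the WT host, or FPKM 0.919 in the KO host and 4.26 in the WT host. Its RPM was 4.64-fold lower in the KO host (95% counting interval 3.93 to 5.50), and the deposited log2 value was lower by 1.46 on its own scale. Of the 2989 genes with 1000 to under 3000 reads, 0.435% were as low or lower. No other gene of the 10 lay so far out in its own range. That share depends on the range, as its 1043 reads over both libraries lie just above the lower edge. In the range below, 300 to under 1000 reads, 20.1% of genes were 2-fold lower, against 7.26% in the range of Serpinh1. There Dcn, a fibroblast marker with a log2 read ratio of -2.15 (Serpinh1 -2.21), had 4.96% of genes as low or lower. Without ranges, 3.85% of genes were as low or lower than Serpinh1, and 2.11% than Lox. The reads of Serpinh1 were whole numbers in each library and it overlapped no other gene of the table.

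The Serpinh1 promoter is shown because that gene lay farthest out in its own range of reads. That of Pcolce is shown as a second gene that was lower. Capitals mark ACGTG or GCGTG on either strand, as above.
Serpinh1, chr7:99353190-99353489, minus strand: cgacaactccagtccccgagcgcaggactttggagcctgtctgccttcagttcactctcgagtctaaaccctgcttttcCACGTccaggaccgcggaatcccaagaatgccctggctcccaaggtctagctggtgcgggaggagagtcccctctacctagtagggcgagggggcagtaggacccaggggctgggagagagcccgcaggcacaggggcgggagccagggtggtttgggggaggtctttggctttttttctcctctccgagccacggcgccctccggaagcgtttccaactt
Pcolce, chr5:137611355-137611654, minus strand: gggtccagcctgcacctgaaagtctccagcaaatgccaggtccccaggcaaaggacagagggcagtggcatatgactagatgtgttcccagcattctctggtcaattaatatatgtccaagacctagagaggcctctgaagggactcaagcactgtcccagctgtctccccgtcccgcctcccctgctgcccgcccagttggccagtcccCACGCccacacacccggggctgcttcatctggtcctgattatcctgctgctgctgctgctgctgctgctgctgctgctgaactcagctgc
Each of these windows had 1 match to the hypoxia core. The heat shock element, searched as GAANNTTC on both strands because HSP47 is a heat shock protein, was in neither window, and 7.86% of all promoter windows held it. The absence says only that these letters are not in this stretch.

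General chaperones of the endoplasmic reticulum lay nearer to level than Serpinh1. Of 12 listed secretory stress and chaperone genes, 1 was 2-fold lower and 0 were 2-fold higher, with a median log2 read ratio of -0.16. Hspa5, the chaperone BiP, had 13330 reads in the KO host and 17320 in the WT host (1.17-fold lower), and Hsp90b1 had 19951 reads in the KO host and 21358 in the WT host, a ratio of 1.04. Both have far more reads than Serpinh1. Of genes with 3000 or more reads 1.16% were 2-fold lower, against 7.26% at 1000 to under 3000 reads, the range of Serpinh1. The gene past 2-fold was Ddit3, a stress transcription factor, with 353 reads in the KO host and 1028 in the WT host. Xbp1 and Atf4, other stress transcription factors, were 1.43-fold and 1.40-fold higher.

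Export of procollagen, examined as 8 genes of the large COPII carrier pathway, showed 0 genes past 2-fold in either direction and a median log2 read ratio of -0.08. Sec31a, a coat protein, had 10358 reads in the KO host and 12612 in the WT host, and Mia3, which encodes the TANGO1 cargo receptor for procollagen, had 625 reads in the KO host and 568 in the WT host.

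Bmp1 and Pcolce act on the same step. Bmp1 (ENSMUSG00000022098, chromosome 14, 70711998 to 70757675, minus strand) encodes the procollagen C-proteinase, which also activates lysyl oxidase. It had 4281 reads in the KO host and 3751 in the WT host and was 1.27-fold higher (95% counting interval 1.22 to 1.33), where 14.9% of genes in its range were as high or higher. Pcolce (ENSMUSG00000029718, chromosome 5, 137603365 to 137612047, minus strand) encodes the enhancer of that proteinase. It had 811 reads in the KO host and 1756 in the WT host and was 1.94-fold lower (1.79 to 2.11), just short of 2-fold, where 7.76% of genes in its range were as low or lower. The proteinase and its enhancer thus lay on opposite sides of level. In the reference annotation Pcolce overlaps Fbxo24 on the same strand and an antisense RNA, Gm36266, which were not analysed here. Antisense or unclassified transcripts on the opposite strand are also annotated over Lox, Loxl2 and Plod2, and were not analysed here either.

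Other propeptide-processing genes were also unlike one another. Adamts2, the N-proteinase of fibrillar procollagens, had 201 reads in the KO host and 1133 in the WT host and was 5.06-fold lower (4.35 to 5.90), where 0.335% of genes in its range were as low or lower. Adamts14, which can perform the same cut, had 3479 reads in the KO host and 3204 in the WT host (1.21-fold higher). Pcolce2, a second enhancer, had 733 reads in the KO host and 1113 in the WT host (1.36-fold lower). Of 4 measured genes of this list, 1 was 2-fold lower and 0 were 2-fold higher, with a median log2 read ratio of -0.45.

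Lox (ENSMUSG00000024529, chromosome 18, 52649139 to 52662940, minus strand) encodes lysyl oxidase, the copper enzyme that starts crosslinking of collagen and elastin. It had 15 reads in the KO host and 217 in the WT host, or FPKM 0.0465 in the KO host and 0.603 in the WT host. Its RPM was 12.98-fold lower in the KO host (95% counting interval 7.69 to 23.6). Among the 1598 genes with 100 to under 300 reads, 12.1% were as low or lower, so a gap of this size is not rare at this depth. Loxl2 (ENSMUSG00000034205, chromosome 14, 69846517 to 69933284, plus strand), a family member known for its role in metastasis, had 133.4 reads in the KO host and 89 in the WT host. It was 1.67-fold higher (1.26 to 2.20), and 31.4% of genes in its range were as high or higher. The recovered reads of Loxl2 in the KO host were not whole. With strand handling unknown, reads of Lox and Loxl2 cannot be told apart from those of the opposite-strand transcripts annotated over them.

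Neither Lox nor Loxl2 was a main source of lysyl oxidase RNA. Loxl3 took 79.5% of the reads of Lox, Loxl2, Loxl3 and Loxl4 in the KO host and 72.5% in the WT host, and Loxl4 took 18.1% in the KO host and 22.6% in the WT host. Lox took 0.244% in the KO host (exact 95% interval 0.136 to 0.402) and 3.44% in the WT host (3.0 to 3.92). Loxl3 had 4893 reads in the KO host and 4576 in the WT host (1.19-fold higher), and Loxl4 had 1115 reads in the KO host and 1426 in the WT host (1.15-fold lower). Loxl1 was not analysed here. Tgm2, a transglutaminase that crosslinks matrix proteins by another chemistry, had 2430 reads in the KO host and 3408 in the WT host (1.26-fold lower). Of these 3 other crosslinking genes, 0 passed 2-fold.

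Eln, which encodes elastin, the other substrate of Lox, had 25 reads in the KO host and 639 in the WT host and was 22.9-fold lower (15.4 to 35.7), where 1.04% of genes in its range were as low or lower. Emilin1, an elastic fibre glycoprotein, had 757 reads in the KO host and 1939 in the WT host (2.30-fold lower). Ltbp1, which binds latent TGF-beta to the matrix, had 19205 reads in the KO host and 23954 in the WT host (1.12-fold lower), and Efemp2, which helps lysyl oxidase reach elastin, had 361 reads in the KO host and 262 in the WT host (1.54-fold higher). Of the 7 elastic fibre genes with 100 or more reads, 2 were 2-fold lower, 0 were 2-fold higher, and the median log2 read ratio was -0.19.

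**Figure D3:**
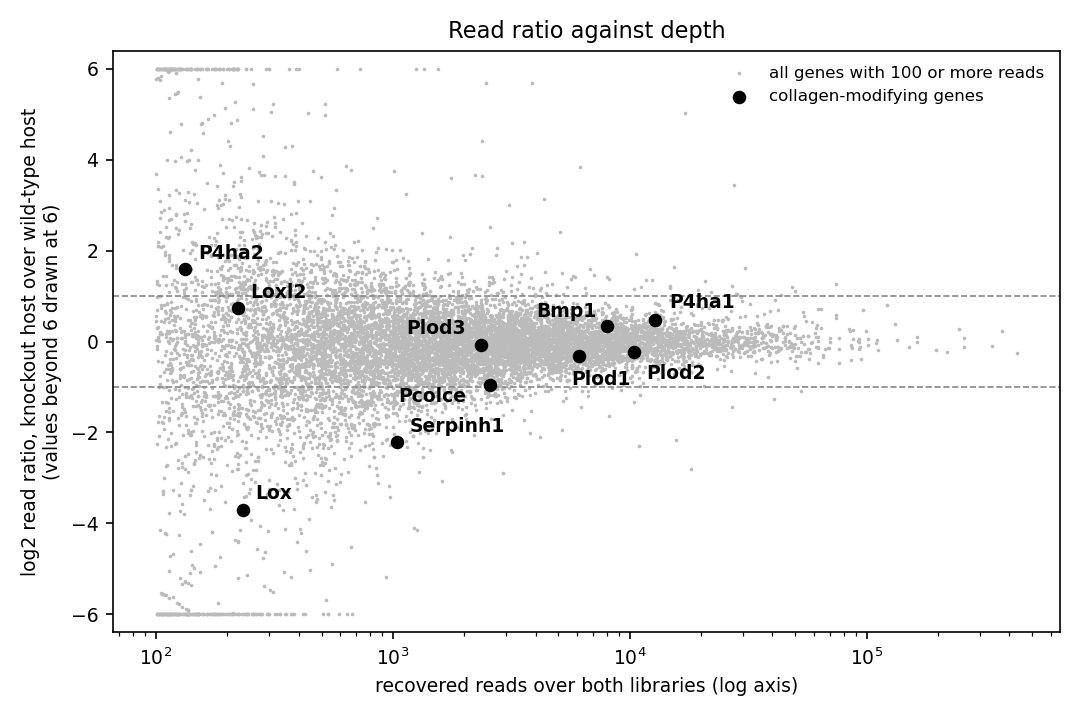
Log2 read ratio (KO host over WT host) against recovered reads over both libraries on a log axis, for all genes with 100 or more reads (grey) and the 10 genes (black); dashed lines mark 2-fold, and values beyond 6 are drawn at 6. The grey cloud widens to the left, where P4ha2, Loxl2 and Lox lie, and Serpinh1 sits at its lower edge.

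The substrates were lower than most of the enzymes. All 11 fibrillar and associated collagen genes in the table, of 13 listed, were below level, with a median log2 read ratio of -1.08. Of these, 6 were 2-fold or more lower, where 12.0% of all genes with 100 or more reads were. Their reads summed to 2102 RPM in the KO host and 4865 RPM in the WT host, while the 10 modifying genes summed to 886 RPM in the KO host and 889 RPM in the WT host. For each 1000 reads of these collagens there were therefore 421 reads of the modifying genes in the KO host and 183 in the WT host, a ratio of 2.31 (95% counting interval 2.26 to 2.36). The 5 basement membrane collagen genes had a median of -0.34, with 0 past 2-fold. Col18a1, at 76322 reads in the KO host and 85900 in the WT host, had a ratio of 0.991.

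The genes split by how they compared with these collagens. Per collagen read, P4ha1 was 3.19-fold higher in the KO host (3.08 to 3.31), Bmp1 2.95-fold higher (2.81 to 3.08), Plod1 1.85-fold higher, Plod2 1.97-fold higher and Plod3 2.20-fold higher. On few reads, P4ha2 was 6.95-fold higher (4.70 to 10.5) and Loxl2 3.86-fold higher (2.93 to 5.10). Pcolce was nearest to keeping pace, with 16.5 reads per 1000 collagen reads in the KO host and 13.8 in the WT host, a ratio of 1.19 (1.09 to 1.30). Serpinh1 and Lox were lower than the collagens as a sum: Serpinh1 had 3.44 reads per 1000 in the KO host and 6.89 in the WT host, a ratio of 0.499 (0.421 to 0.589), and Lox had 0.305 in the KO host and 1.71 in the WT host, a ratio of 0.178 (0.0981 to 0.301). Set against Col1a1 alone, which had 2059 reads in the KO host and 16111 in the WT host (7.02-fold lower), Serpinh1 was 1.51-fold higher (1.27 to 1.80) and Lox had a ratio of 0.541 (0.297 to 0.914). The largest gap among the collagens was that of Col5a2, with 12 reads in the KO host and 128 in the WT host, where 13.3% of genes in its range were as low or lower.

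**Figure D4:**
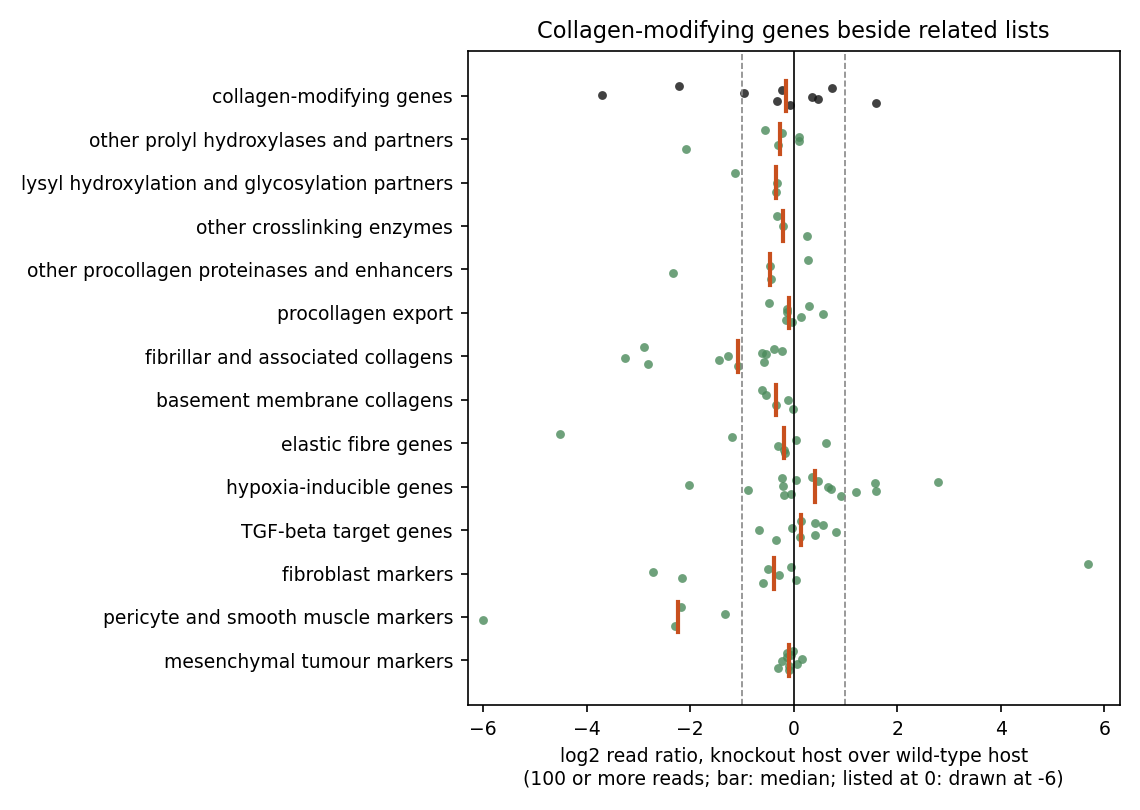
Log2 read ratio (KO host over WT host) of each gene with 100 or more reads, by list, with the median of each list as an orange bar, dashed lines at 2-fold and a gene listed at 0 in the KO host drawn at -6. The modifying genes lie on both sides of 0 around a median of -0.15. All 11 fibrillar and associated collagen genes and all 4 pericyte and smooth muscle genes with 100 or more reads lie below 0.

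Pericyte and smooth muscle markers were lower along with Serpinh1, Lox, Pcolce and the collagens. Most fibroblast markers were lower too, while endothelial and leukocyte markers were mixed. In bulk RNA, fewer cells of a type and less RNA per cell cannot be told apart. Of 10 pericyte and smooth muscle markers, 5 were in the table (Rgs5, Myh11, Cnn1, Kcnj8 and Des were not analysed here). Their summed level was 93.4 RPM in the KO host and 424 RPM in the WT host. Pdgfrb, 4.88-fold lower, made up most of that sum, with 1691 of 2184 reads in the KO host and 9206 of 11044 in the WT host. All 4 markers of this list with 100 or more reads were 2-fold or more lower, where 12.0% of all genes with 100 or more reads were. Among them, Notch3 had 188 reads in the KO host and 950 in the WT host. Cspg4 was listed at 0 in the KO host and had 190 reads in the WT host, a depth at which 32.5% of genes were 2-fold lower. The remaining marker, Abcc9, ran the other way on few reads, with 55.7 in the KO host and 1 in the WT host; it was chosen after its values were seen. Of 12 fibroblast markers, 10 were in the table, with a sum of 1087 RPM in the KO host and 1377 RPM in the WT host. Of the 8 with 100 or more reads, 6 were below level and 2 above, with a median log2 read ratio of -0.38. Of these 8, 2 were 2-fold lower (Dcn, with 158 reads in the KO host and 784 in the WT host, and Dpt, with 44 reads in the KO host and 322 in the WT host). Past 2-fold the other way was 1, Ly6c1, with 186 reads in the KO host and 4 in the WT host. Gsn and Ogn, with the most reads of this list, were 1.41-fold and 1.21-fold lower. Pdgfra, a defining fibroblast receptor outside the naming rule, had 5056 reads in the KO host and 5834 in the WT host, a ratio of 0.966. The part of these markers in the lower values of Serpinh1, Lox and Pcolce was not tested.

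The 10 mesenchymal tumour markers had a median log2 read ratio of -0.09 with 0 past 2-fold, and Vim had 67960 reads in the KO host and 82646 in the WT host. Epithelial markers were higher, with a median of 1.17 and 3 of 6 past 2-fold, where 8.90% of all genes with 100 or more reads were 2-fold higher. Cldn4 had 783 reads in the KO host and 251 in the WT host. The shares of genes in their range as high or higher were 0.769% for Cldn4, 4.65% for Krt19 and 19.0% for Epcam. Krt8 and Krt18, with the most reads of this list, were 1.42-fold and 1.57-fold higher. The part of epithelial markers in the higher values of P4ha1 and Bmp1 was not tested. Endothelial markers summed to 14.5 RPM in the KO host and 18.5 RPM in the WT host, with Plvap at 58 reads in the KO host and 348 in the WT host and Cdh5 at 146 reads in the KO host and 1 in the WT host. Leukocyte markers summed to 29.9 RPM in the KO host and 30.1 RPM in the WT host, but of the 7 with 100 or more reads 1 was 2-fold lower and 2 were 2-fold higher. Itgam had 25 reads in the KO host and 237 in the WT host, Cd68 had 70 reads in the KO host and 33 in the WT host, and Fcer1g had 70 reads in the KO host and 31 in the WT host. Cartilage, bone and muscle markers summed to 7.23 RPM in the KO host and 16.8 RPM in the WT host, a difference set by Acan, with 12 reads in the KO host and 436 in the WT host. The other 2 in the table ran the other way. Col2a1 had 112 reads in the KO host and 1 in the WT host. Dmp1, outside the naming rule, had 45 reads in the KO host and was listed at 0 in the WT host. Genes known as TGF-beta targets, among which matrix enzymes are often counted, had a median of 0.13 over 9 genes with 0 past 2-fold, where Ccn1 had 6526 reads in the KO host and 11514 in the WT host.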

How the data were processed

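RNA of CD45-negative live cells was measured in 2 libraries, 1 per host genotype. The authors deposited 1 table of log2 values, named as log2(FPKM + 1), with 12707 genes. STAR 2.7.8a, Partek and the build mm39 appear, without roles, per the submitters' processing notes. Annotation release, gene filter, counting over exons or over the whole span, strand and duplicate handling: not given in the sources used here. FPKM times the deposited length (start to stop, labelled as such in the table) summed to 1000000 in each library. Reads were recovered from the step between low values: under 1000 reads, 83.4% of values in the KO host and 84.9% in the WT host were whole within 0.1 read. Recovery was tested on simulated data. A value of 0 is reported as listed at 0 (413 genes in the KO host, 511 in the WT host).

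No test was possible with 1 library per group. Ratios of RPM have 95% exact conditional binomial intervals, family shares exact Clopper-Pearson intervals, levels exact Poisson intervals, and ratios per collagen read conditional odds-ratio intervals (Python 3.11.15, pandas 2.3.3, numpy 2.4.6, scipy 1.17.1). Reads amplified by PCR and lacking molecular identifiers may repeat a molecule, so the intervals cover counting error only. Counts of genes past 2-fold use 100 or more reads over both libraries, and on the deposited scale a mean of 1 or more. For the read counts of each list, the shares over all genes with 100 or more reads were 12.0% 2-fold lower and 8.90% 2-fold higher. The genes and 20 further lists were chosen with earlier results of these data known. Genes were named from the 10, Mtdh, and in each list the 3 largest ratios and the 2 with most reads. Only some of those from the lists are printed, and exceptions to the rule are stated beside their values. Promoter windows are from RefSeq on GRCm38.p6, and 6 of the 10 genes matched.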

Additional observations from a re-analysis of the deposited data

How the results depend on the processing

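No paired analysis was possible because each host genotype has 1 library. Each of the 10 genes was recomputed under 4 alternatives of the deposited scale (0.1 or 5 added, quantile normalization, centring on the median). The read scale had 3 alternatives (library totals without mitochondrially encoded genes or without the 100 genes with most reads, centring). No direction changed, but a different added value cannot change a direction, and the changed totals shifted all read ratios alike and by little. Of the single-gene values, 49 stayed within the counting interval of the gene and 21 moved outside it. With 5 added instead of 1, the median deposited difference was -0.091 and 0 genes were lower by 1 or more, since a larger added value shrinks every difference. Without the filter on the mean, that median was -0.12 over 10 genes. With 1000 or more reads required, 7 genes remained, 1 was 2-fold lower and 0 were 2-fold higher, because Lox and P4ha2 have fewer reads. The other 28 recomputed medians and counts moved by no more than the typical counting interval or 1.5 times. Serpinh1 ranged from -2.10 to -0.65 on the deposited scale and from -2.22 to -2.15 on the read scale, and Lox from -2.26 to -0.15 and from -3.70 to -3.63. No gene of the 10 reached a mean log2 value of 3, so that filter gave no value. Depth limits P4ha2, Lox and Loxl2 most, each with under 300 reads over both libraries.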

Other observations

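Genes that supply the hydroxylases and the collagen chain were read from 2 lists not used above. Prolyl and lysyl hydroxylases need 2-oxoglutarate, iron and ascorbate, and lysyl oxidases need copper. Of 8 supply genes with 100 or more reads, 2 were 2-fold lower in the KO host and 0 were 2-fold higher, with a median log2 read ratio of 0.01. Idh2, the mitochondrial enzyme that makes 2-oxoglutarate from isocitrate, had 1468 reads in the KO host and 3890 in the WT host (2.38-fold lower), and 0.497% of genes with 3000 or more reads were as low or lower. Got2, a mitochondrial aminotransferase, had 2440 reads in the KO host and 2518 in the WT host. Atp7a, which loads copper onto secreted enzymes, had 1765 reads in the KO host and 1384 in the WT host (1.42-fold higher), and Atox1, the chaperone that carries copper to it, had 53 reads in the KO host and 148 in the WT host.

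Proline and glycine make up much of a collagen chain. Of 7 measured genes of their synthesis, 1 was 2-fold lower, 1 was 2-fold higher and the median log2 read ratio was -0.04. Pycr1, which makes proline in mitochondria, had 476.3 reads in the KO host and 177 in the WT host (3.0-fold higher), where 4.73% of genes in its range of reads were as high or higher. The serine and glycine branch was on the other side, with Phgdh at 5474 reads in the KO host and 8238 in the WT host (1.35-fold lower), Psat1 at 2406 in the KO host and 4556 in the WT host (1.70-fold lower) and Psph at 175 in the KO host and 522 in the WT host (2.68-fold lower, with 11.8% of genes in its range as low or lower). The reads of Pycr1 in the KO host were not whole.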
